A study of Mus musculus with 2 samples.

Results

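Aminoacyl-tRNA synthetases are the enzymes that join each amino acid to its transfer RNA before it can be used by the ribosome. The 36 genes described here were chosen by name: 20 encode enzymes of the cytosol, and 16, with symbols ending in 2, encode enzymes of the mitochondrion. All 36 were found by exact symbol among the 35522 features of both expression tables. Gars and Kars are known to supply both compartments from 1 gene each, and are counted here with the cytosolic enzymes.

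To ask how tumor exosomes alter the transcripts of neutrophils, bone marrow cells of Balb/C mice, bought at an age of 5 to 8 weeks, had been sorted for CD11b, high Ly6G and low or absent Ly6C and kept in complete RPMI-1640 with 10 ng/ml GM-CSF. The PBS library came from cells given PBS for 3 days. The exosome library came from cells given tumor exosomes at 20 μg/ml for 3 days. The exosomes were vesicles released by CT26 murine colon carcinoma cells grown as spheres in a stem cell medium, called SDCSCs for sphere-derived cancer stem cells. Both cultures thus held GM-CSF, a growth factor that keeps neutrophils alive. Whether marrow of several animals was pooled is not given in the sources used here.

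There was 1 library per treatment, so no value below has a replicate error, no test was possible and no p-value is given. Expression is given as RPKM, reads scaled by the length of the exon model and by the mapped reads of the library, so that levels of different genes can be compared per length. Differences are given as the ratio of exosome RPKM to PBS RPKM or as its log2. The 95% counting interval beside a log2 ratio is an exact interval from estimated read numbers and covers counting error only, not the variation between cultures or animals. By estimate, the PBS library held 65.96 M reads that mapped, and that of exosome-treated cells 79.12 M. Genes under 0.25 RPKM in either library were set aside. Among those kept, up means that the ratio reached 2, and down that it was 0.5 or lower.

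As background, the cytosolic enzymes charge the transfer RNAs of cytosolic protein synthesis, and 8 of them (those for aspartate, glutamate and proline, isoleucine, lysine, leucine, methionine, glutamine and arginine) are held in a large multisynthetase complex on scaffold proteins. The mitochondrial enzymes are made from nuclear genes and imported to charge the transfer RNAs that the mitochondrial genome encodes. Many cytosolic synthetase genes are known targets of the transcription factor Atf4, which is translated when amino acids are short or the cell is under stress. Mature neutrophils are short-lived cells with few mitochondria and little new protein synthesis compared with their precursors.

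Markers of cell types differed between the libraries. All 12 neutrophil markers were detected above the filter in both libraries, but 10 were down and 0 were up, and their summed level was 84901.66 RPKM in PBS and 30855.38 with exosomes. The lowest ratios were those of Retnlg (3021 and 208.33 RPKM) and of the granule genes Camp (381.38 and 33.92) and Ngp (862.34 and 85.01). Of 9 kept monocyte and macrophage markers 5 were up and 1 was down, with sums over all 14 listed of 495.44 and 877.84 RPKM. The complement genes C1qc and C1qb had 0.27 and 3.79, and 0.3 and 2.3 RPKM, and the macrophage gene Emr1 had 20.91 and 151.51. B-cell markers were present in both libraries, with sums of 108.12 and 66.87 RPKM over 5 genes, of which 0 were up or down. T-cell markers summed to 58.7 and 8.24 RPKM over 7 genes, nearly all of it Cd3d (56.44 and 7.02), with Trac at 0 in both. Of the 6 epithelial markers that carcinoma RNA could bring, none passed the filter; their sums were 0.59 and 0.21 RPKM, with Krt8 and Cldn4 at 0 in both. The remaining lists were small in level, with sums of 10.35 and 4.78 RPKM for dendritic cells, 8.7 and 4.92 for eosinophils, basophils and mast cells, 2.4 and 0.45 for erythroid cells and 0.25 and 0.66 for NK cells. Of 6 kept proliferation genes 2 (Pcna and Mcm2) were up. The part of these shifts in the synthetase values given next was not tested. In RNA of a mixed culture, fewer cells of a type and less RNA per cell cannot be told apart.

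Synthetase transcripts were higher in exosome-treated neutrophils almost throughout. Of the 36 synthetase genes, 34 (94.4%) had a higher RPKM in the exosome library than in PBS, against 66.6% of the 13970 features above 0 in both libraries. The exceptions were Sars and Lars2. Summed over the genes, the cytosolic enzymes held 107.08 RPKM in PBS and 207.7 with exosomes, a ratio of 1.94. The mitochondrial enzymes held 18.78 and 35.92 RPKM, a ratio of 1.91. The cytosolic sum was thus 5.7 times the mitochondrial sum in PBS and 5.78 times with exosomes.

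At the 2-fold limit, 12 of 20 cytosolic genes (60%) were up and 0 were down, and 7 of the 10 mitochondrial genes that passed the filter (70%) were up and 0 were down. The mitochondrial count depended on how low values were handled: it was 7 of 16 (43.8%) with no filter and 0.25 RPKM added, 4 of 10 with 1 RPKM added, and 2 of 5 at an RPKM of at least 1. Of all 9698 features kept, 31.5% were up and 5.62% were down. The median log2 ratio was 1.19 for the cytosolic and 1.25 for the kept mitochondrial genes, against 0.53 for all features kept. The mitochondrial median was 0.52 with 1 RPKM added and 0.54 at an RPKM of at least 1. All kept features as a whole were thus shifted toward the exosome library, by a ratio of 1.44 at the median. With that shift removed, 17 of 20 cytosolic and 14 of 16 mitochondrial genes still had the higher value in the exosome library, and the signs of Cars, Dars and Hars2 turned. The numbers up then were 7 of 20 and 3 of 10, beside 16.8% of all features up and 1282 features down.

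**Figure D1:**
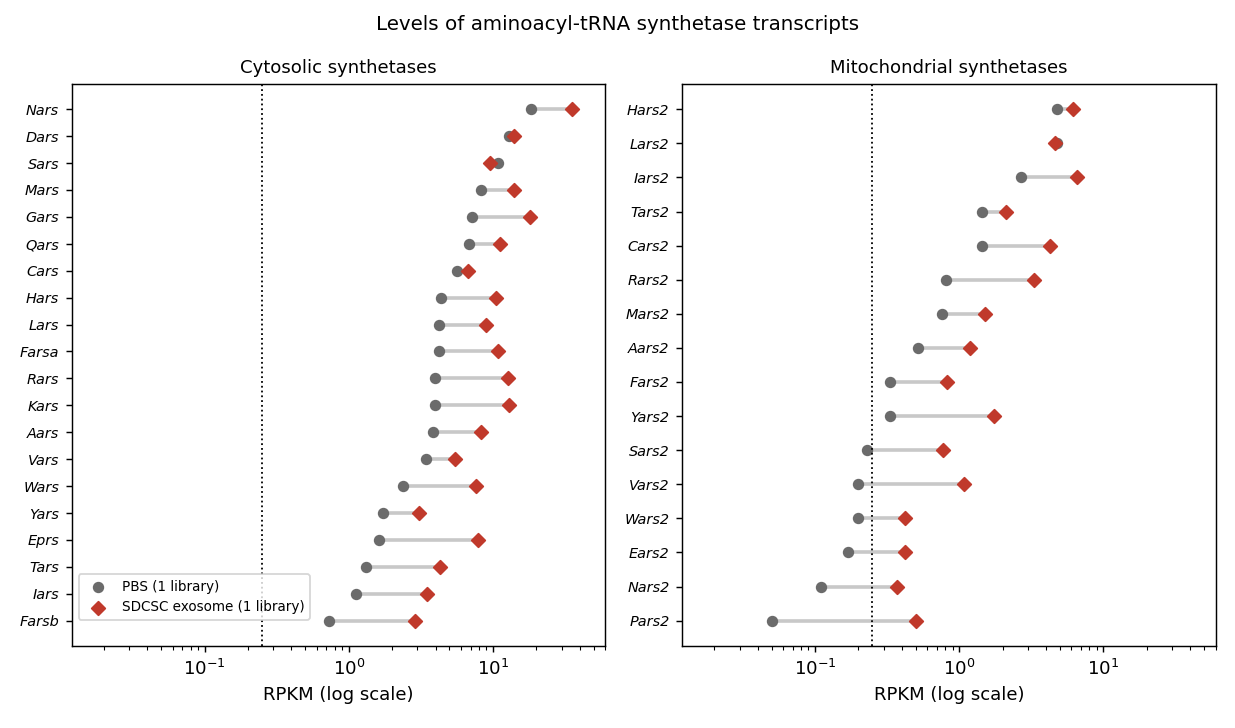
RPKM of each synthetase gene in the PBS library (circles) and the SDCSC exosome library (diamonds) on a log scale, cytosolic enzymes at left and mitochondrial enzymes at right, each ordered by the PBS level. The dotted line is the filter of 0.25 RPKM. The exosome value lies to the right for 34 of 36 genes, and the mitochondrial genes reach much lower levels than the cytosolic ones.

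The shift of all features depended on their level, so the members were also read against features of like level. Among features with a mean RPKM from 1 to 5, 50.2% were up and the median ratio stood at the 2-fold limit, and 9 of the 13 synthetases in this range were up (69.2%). From 5 to 10 RPKM 34.6% of features were up, and 7 of 10 synthetases were (70%). From 10 to 50 RPKM 18.4% of features and 1 of 5 synthetases were up. From 0.25 to 1 RPKM 31.7% of features were up, and so were 2 of 2 synthetases, Aars2 and Fars2. In this reading 21 of the 30 kept genes lay above the median of their level range, 15 of 20 cytosolic and 6 of 10 mitochondrial. The median excess over the level range was 0.61 on the log2 scale for cytosolic and 0.44 for mitochondrial genes, beside full medians of 1.19 and 1.25. With the median of each level range removed, 4 of 20 cytosolic (20%) and 2 of 10 mitochondrial genes (20%) were up. Of all features kept, 14% (1353) were then up and 1301 were down. Lars2 was the mitochondrial gene that was down.

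**Figure D2:**
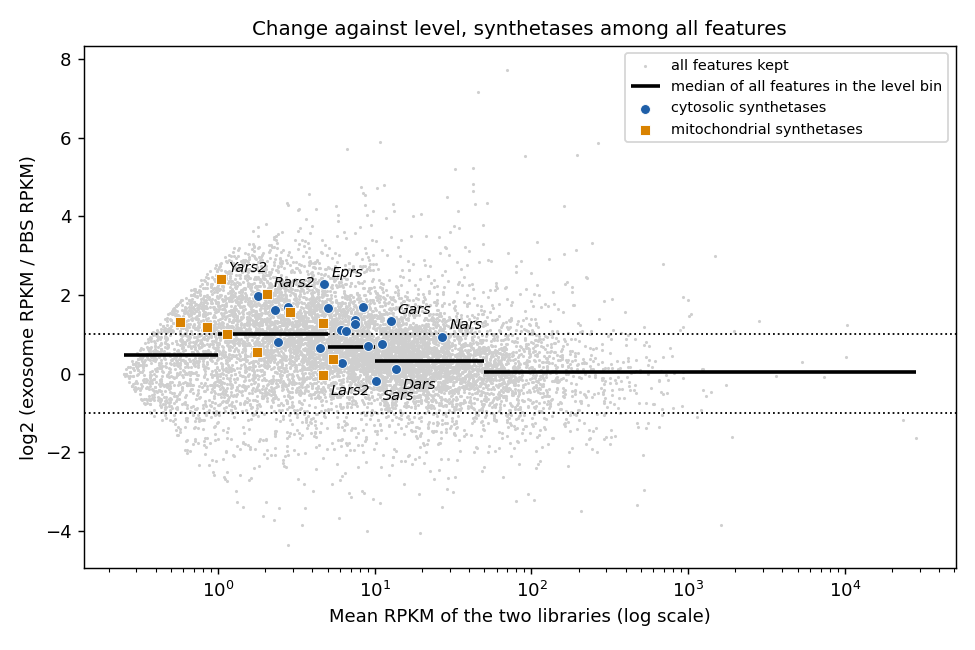
The log2 ratio of exosome to PBS RPKM against the mean RPKM of the libraries on a log scale, for all 9698 features kept (grey), the cytosolic synthetases (circles) and the kept mitochondrial synthetases (squares). Black bars are medians of all features within a level range and dotted lines mark the 2-fold limits. The synthetases lie mostly above the bars, with Eprs and Yars2 highest and Sars and Lars2 below 0.

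Within the multisynthetase complex, 5 of 8 enzymes were up and 0 were down, with a median log2 ratio of 1.35. Eprs, the bifunctional enzyme for glutamate and proline, had 1.62 RPKM in PBS and 7.9 with exosomes. That ratio of 4.88 was the highest of the cytosolic enzymes (log2 ratio 2.29, counting interval 2.16 to 2.41), and Eprs was the only cytosolic gene past 4-fold, a limit passed by 8.52% of all features. It moved from the 20th to the 13th place in the order of the 36 levels.

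Kars, the lysine enzyme, had 3.98 RPKM in PBS and 12.93 with exosomes. Rars, the arginine enzyme, had the same PBS level, 3.98 RPKM, and 12.77 with exosomes. Their ratios were 3.25 and 3.21, and their counting intervals, 1.57 to 1.83 and 1.55 to 1.82 on the log2 scale, overlapped almost fully. Iars, the isoleucine enzyme, was lower throughout, at 1.13 and 3.49 RPKM, with a ratio of 3.09. Lars, the leucine enzyme, which is also known as a leucine sensor for mTORC1, had 4.23 and 8.94 RPKM. Its ratio of 2.11 was called up, but its counting interval of 0.98 to 1.18 included the 2-fold limit.

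The other 3 enzymes of the complex stayed within 2-fold. Mars, which charges methionine and so also the initiator transfer RNA, had 8.23 and 13.98 RPKM (ratio 1.7). Qars, the glutamine enzyme, had 6.88 and 11.17 RPKM (ratio 1.62). Dars, the aspartate enzyme, was among the most abundant in PBS with 13.02 RPKM and had 14.11 with exosomes (log2 ratio 0.12, counting interval 0.03 to 0.20). In PBS the transcripts of this complex spanned 1.13 to 13.02 RPKM, and with exosomes 3.49 to 14.11 RPKM. All 3 scaffold genes of the complex were up: Aimp1 from 2.67 to 9.34 RPKM, Aimp2 from 2.99 to 6.21 and Eef1e1 from 0.73 to 5.25. The interval of Aimp2, 0.83 to 1.28, included the 2-fold limit.

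Of the 12 cytosolic enzymes outside the complex, 7 were up and 0 were down. Farsa and Farsb encode the α and β subunits of the phenylalanine enzyme. Farsa had 4.2 RPKM in PBS and 10.77 with exosomes, and Farsb had 0.73 and 2.86. The ratios were 2.56 and 3.92, and the Farsb transcript was the lowest of the cytosolic set in both libraries. The counting interval of Farsb, 1.65 to 2.30, was wide because only 98 reads were estimated in PBS.

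Tars, the threonine enzyme, had 1.32 and 4.3 RPKM, a ratio of 3.26. Wars, the tryptophan enzyme, which is known to be induced by interferon-γ, had 2.39 and 7.61 RPKM, a ratio of 3.18 with a counting interval of 1.52 to 1.82 on the log2 scale. Gars, the glycine enzyme, had 7.15 and 18.05 RPKM, a ratio of 2.52. Gars was the sole synthetase above 10 RPKM on average that passed the 2-fold limit, and it was the 2nd most abundant of the 36 with exosomes. Hars, the histidine enzyme, had 4.36 and 10.5 RPKM, and Aars, the alanine enzyme, had 3.84 and 8.27 RPKM. Their ratios were 2.41 and 2.15.

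Nars, the asparagine enzyme, was the most abundant synthetase transcript in both libraries, with 18.45 RPKM in PBS and 35.36 with exosomes. Its ratio was 1.92, and its counting interval began at 0.88 on the log2 scale and ended just under the 2-fold limit. Nars held 17.2% of the cytosolic sum in PBS and 17% with exosomes. Yars, the tyrosine enzyme, had 1.74 and 3.06 RPKM (ratio 1.76, interval 0.62 to 1.01), and Vars, the valine enzyme, had 3.46 and 5.43 RPKM (ratio 1.57).

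Cars and Sars departed from the rest. Cars, the cysteine enzyme, had 5.6 RPKM in PBS and 6.69 with exosomes, a ratio of 1.19. Sars, the serine enzyme, which also starts the charging of selenocysteine transfer RNA, had 10.77 RPKM in PBS and 9.51 with exosomes. Its log2 ratio was -0.18 with a counting interval of -0.26 to -0.10, and it went from the 3rd to the 10th place among the 36 levels. Together with Dars, these genes had the smallest log2 ratios of the cytosolic set, and the sign of Cars and Dars turned once the median shift of all features was removed. The spread among the cytosolic enzymes narrowed: the upper quartile was 3.12 times the lower quartile in PBS and 2.01 times with exosomes. That of the 16 mitochondrial enzymes also narrowed, from 7.21 to 5.03 times. The median log2 ratio of all features was 0.48, 1, 0.67 and 0.31 in rising level ranges from 0.25 to 50 RPKM. The part of this shift in the narrowing was not tested.

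**Figure D3:**
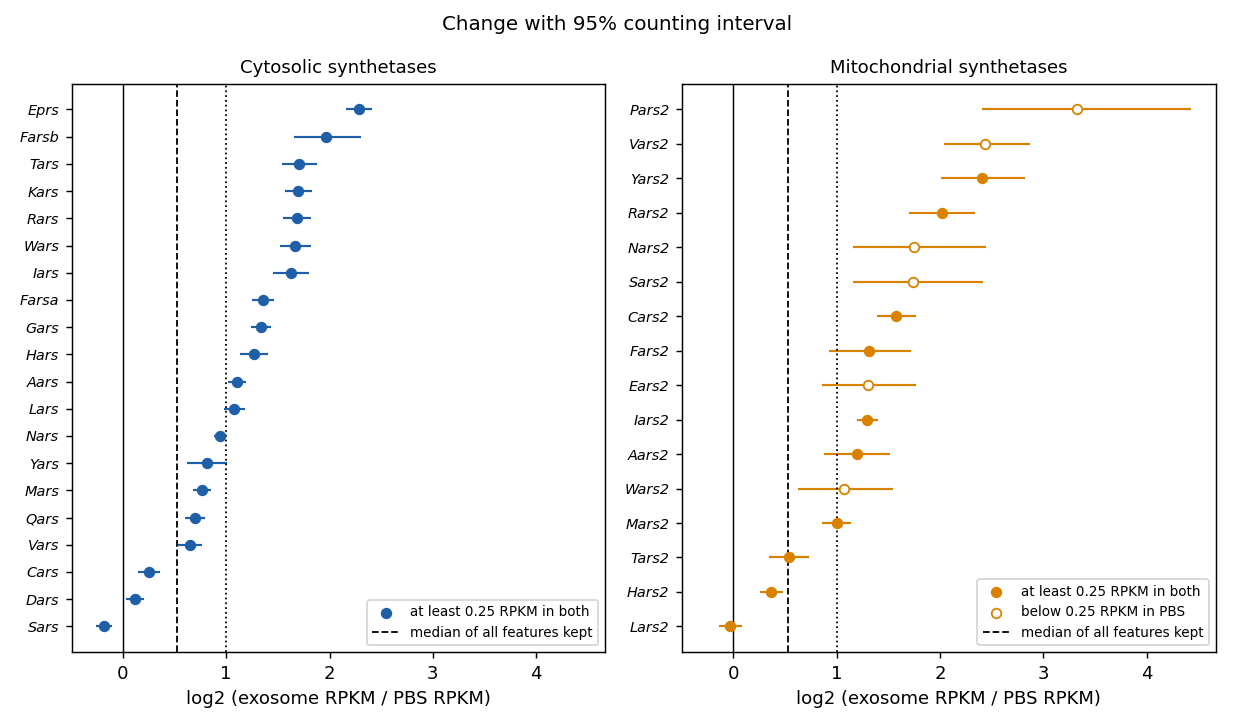
The log2 ratio of exosome to PBS RPKM for each synthetase gene with its 95% counting interval, cytosolic enzymes at left and mitochondrial enzymes at right. Open circles are genes under 0.25 RPKM in PBS, the dashed line is the median of all features kept (0.53) and the dotted line is the 2-fold limit. Eprs leads the cytosolic and Pars2 the mitochondrial genes, and the widest intervals belong to the mitochondrial genes of lowest level.

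The mitochondrial enzymes were scarce in PBS-treated neutrophils, with a median of 0.425 RPKM against 4.09 for the cytosolic enzymes, and had medians of 1.35 and 9.22 RPKM with exosomes. Yars2, the tyrosine enzyme, had 0.33 RPKM in PBS and 1.75 with exosomes. Rars2, the arginine enzyme, had 0.81 and 3.28 RPKM. Both were past 4-fold, at ratios of 5.3 and 4.05, with counting intervals of 2.01 to 2.82 and 1.70 to 2.34 on the log2 scale.

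Cars2, the cysteine enzyme, had 1.44 and 4.3 RPKM, a ratio of 2.99. Iars2, the isoleucine enzyme, was the most abundant mitochondrial synthetase with exosomes, at 2.69 and 6.62 RPKM, a ratio of 2.46. Fars2, which charges phenylalanine as a single chain, had 0.33 and 0.82 RPKM, and Aars2, the alanine enzyme, had 0.52 and 1.19 RPKM. Mars2, the methionine enzyme, had 0.76 and 1.52 RPKM, exactly at the 2-fold limit. The counting intervals of Fars2, Aars2 and Mars2 all included that limit.

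The 3 kept mitochondrial genes that were not called were 3 of the 5 most abundant in PBS. Tars2, the threonine enzyme, had 1.45 and 2.11 RPKM, a ratio of 1.46. Hars2, the histidine enzyme, had 4.75 and 6.13 RPKM, a ratio of 1.29. Lars2, the leucine enzyme, had 4.74 and 4.64 RPKM, a log2 ratio of -0.03 whose interval of -0.14 to 0.08 included 0, so no change was detectable at this depth. Lars2 was 9th of the 36 levels in PBS and 19th with exosomes, and lay 1.03 below the median log2 ratio of its level range.

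Another 6 mitochondrial genes were below 0.25 RPKM in PBS. They are part of the sums, the pairs and the counts over all 36 or 16 genes, but not of the numbers up or down. Each of them was above 0.25 RPKM with exosomes. Pars2, the proline enzyme, had 0.05 RPKM in PBS, an estimated 10 reads, and 0.5 with exosomes, and its interval of 2.41 to 4.43 leaves out the rounding of the PBS value to 0.01 RPKM. Vars2, the valine enzyme, had 0.2 and 1.08 RPKM (log2 ratio 2.43, interval 2.04 to 2.87). Nars2, for asparagine, and Sars2, for serine, had 0.11 and 0.37, and 0.23 and 0.77 RPKM. Wars2, for tryptophan, had 0.2 and 0.42 RPKM, and Ears2, for glutamate, had 0.17 and 0.42 RPKM. The intervals of Wars2 and Ears2 began at 0.63 and 0.86, above 0 and under the 2-fold limit.

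Enzymes for the same amino acid in both compartments did not share a common ratio. In 9 of 16 pairs the mitochondrial gene had the larger log2 ratio and in 7 the cytosolic gene did. Eprs was paired with both Ears2 and Pars2, and Fars2 was paired with Farsa only. For serine, Sars had a ratio of 0.883 and Sars2 one of 3.35, so that the cytosolic transcript exceeded the mitochondrial one 46.8 times in PBS and 12.4 times with exosomes. For leucine, threonine and histidine the order was the reverse, with log2 ratios of Lars2, Tars2 and Hars2 lying 1.11, 1.16 and 0.90 below those of Lars, Tars and Hars. In PBS these 3 mitochondrial transcripts stood above their cytosolic counterparts, and with exosomes below them. Iars2 exceeded Iars in both libraries. For alanine and phenylalanine (Farsa) the pair differed by at most 0.09 in log2 ratio. Farsb, the other phenylalanine subunit, had a log2 ratio of 1.97, beside 1.31 for Fars2. Cytosolic transcripts were the more abundant in 12 of 16 pairs in PBS and in 15 of 16 with exosomes.

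Shares up were much alike for the structural classes of the enzymes and for known Atf4 targets and other cytosolic genes. Of the class I enzymes, which share a nucleotide-binding fold with the HIGH and KMSKS motifs, 10 of 16 kept were up (median log2 ratio 1.19). Of the class II enzymes 9 of 14 were up (median 1.23). Of the 12 cytosolic genes commonly listed as Atf4 targets 7 were up (median 1.09), and of the 8 others 5 were up (median 1.31).

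Because Atf4 acts through the C/EBP-ATF or amino acid response element, the promoters of the members were searched for its core. Windows from RefSeq (GRCm38.p6) that run from 250 bases before to 50 bases after a gene's start were matched for 27 members, Mars by its present symbol Mars1. Cars, Hars, Lars, Nars, Rars, Vars, Wars, Hars2 and Pars2 had none in the table used. On either strand, the core TGATGNAA was found for 5 of 13 cytosolic and 0 of 14 mitochondrial genes, against 4.51% of 27025 genes. The 5 were Aars, Gars, Iars, Tars and Yars, all on the Atf4 list, of which 8 had a window. The E-box CACGTG, which Myc and related factors bind, was found in Aars, Farsb, Iars, Tars and Ears2, against 8.09% of all genes. The core CGCATGCG of the NRF1 site was found in Vars2 and Wars2, against 2.07%, and the ETS core CCGGAAGT in Farsa, Mars and Rars2, against 4.31%.

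The stretches below show where these letters lie before the start of 6 of these genes, with every match in capitals, and were picked with the values known. They are read 5′ to 3′ on the strand of the gene. In Aars (chr8:111033674-111033759, plus strand) the E-box precedes a response element core, which is on the opposite strand and begins 112 bases before the start, and another core lies 9 bases past the start, outside the stretch shown. In Gars (chr6:55037949-55038000, plus) and Tars (chr15:11399659-11399695, minus) the core begins 30 and 15 bases before the start. The E-box of Tars lies 19 bases past the start, also outside its stretch. Iars (chr13:49682039-49682088, plus) shows its E-box, and its core lies 7 bases past the start, as does that of Yars at 3 bases past it. Vars2 (chr17:35667593-35667661, minus) has 2 copies of the NRF1 core and Wars2 (chr3:99141005-99141056, plus) has 1. No matches overlapped in these stretches.
Aars: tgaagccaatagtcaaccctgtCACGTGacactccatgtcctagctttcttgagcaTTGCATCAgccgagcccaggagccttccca
Gars: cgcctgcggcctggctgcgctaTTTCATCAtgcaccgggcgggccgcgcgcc
Tars: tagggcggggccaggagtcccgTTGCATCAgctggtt
Iars: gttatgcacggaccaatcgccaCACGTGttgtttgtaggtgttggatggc
Vars2: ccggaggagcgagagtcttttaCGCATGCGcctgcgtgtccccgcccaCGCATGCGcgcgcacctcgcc
Wars2: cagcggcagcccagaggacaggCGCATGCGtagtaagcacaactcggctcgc

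The 5 cytosolic genes with the response element core had ratios from 1.76 (Yars) to 3.26 (Tars), with a median of 2.52, and 4 of them were up. The 8 cytosolic genes with a window and no match had ratios from 0.883 (Sars) to 4.88 (Eprs), with a median of 2.13, and 4 of them were up. The ranges overlapped, and a match of letters is not a measure of binding.

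Other genes of the amino acid response went both ways. Atf4 itself had 91.51 RPKM in PBS and 101.54 with exosomes. Ddit3, the stress-induced partner of Atf4, was lower with exosomes, 83.99 against 23.52 RPKM. Asns, the asparagine synthetase gene and a sensitive Atf4 target, was higher, at 2.41 and 8.87 RPKM, and the arginine and lysine transporter gene Slc7a1 had 0.67 and 2.74 RPKM. Of 25 amino acid response genes kept, 4 were up (Asns, Slc7a1, Mthfd2 and Slc1a5) and 5 were down (Ddit3, Chac1, Atf3, Sesn2 and Slc38a2). The median log2 ratio was 0.13, under the 0.53 of all features. Amino acid transporter genes stood on both sides, with Slc7a1 and Slc1a5 up and Slc38a2 down from 95.38 to 46.64 RPKM.

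Interferon-γ response genes were read beside Wars. Of 11 kept, 1 (Gbp3) was up and 0 were down, with a median log2 ratio of -0.01. Irf1 had 19.55 and 15.04 RPKM. Psmb9, a subunit of the immunoproteasome, had 29.71 and 21.95 RPKM. Wars, at a log2 ratio of 1.67, thus lay above every kept gene of this list. Myc was low, at 0.47 and 0.38 RPKM, with an interval of -0.80 to 0.19 that included 0. Its partner Max and the antagonist Mxd1 were down, from 102.24 to 40.03 and from 466.57 to 172.86 RPKM.

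Other genes of the transfer RNA pathway were read beside the synthetases. Of 21 kept genes of transfer RNA maturation, export and editing, 17 (81%) were up and 1, Dtd1, which removes D-amino acids from transfer RNA, was down. Of all features kept 31.5% were up, and of those with a mean RPKM from 1 to 5, 50.2% were. The largest ratios were those of Nsun2, a cytosine methyltransferase (1.54 and 9.4 RPKM), Trmt5, a guanosine methyltransferase (0.38 and 1.95), and Pus1, a pseudouridine synthase (0.72 and 3.48). The list of cytosolic elongation factors, which also holds the kinase gene Eef2k, included far more abundant transcripts, and its median log2 ratio was 0.34. Eef1a1, whose product carries charged transfer RNA to the ribosome, had 485.39 and 496.41 RPKM. Of the 7 kept genes 2 (28.6%), Eefsec and Eef1d, were up. Eef2k, the inhibitory kinase of elongation factor 2, was down from 4.47 to 0.42 RPKM.

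In the mitochondrial pathway, glutamine has no synthetase among the members, since mitochondria charge that transfer RNA with glutamate by Ears2 and convert it with an amidotransferase. Both measured amidotransferase subunits were up, Qrsl1 from 0.44 to 3.78 RPKM and Gatc from 3.36 to 9.78. Of 8 kept mitochondrial translation factors 4 (50%) were up and 0 were down, led by Gfm1 (0.53 and 4.54 RPKM), Tsfm (0.57 and 2.82) and Tufm (2.12 and 10.16), which encode elongation factors. That share was near the 50.2% of all features with a mean RPKM from 1 to 5. Of all features kept, 31.5% were up. Of 75 kept genes of mitochondrial ribosomal proteins 55 (73.3%) were up and 0 were down, with a median log2 ratio of 1.67, beside 1.25 for the kept mitochondrial synthetases. Of 12 kept genes of mitochondrial transcription and RNA upkeep 8 (66.7%) were up, led by Pprc1 (0.45 and 2.52 RPKM), Lrpprc (0.86 and 4.32) and Slirp (2.35 and 11.7). With the median of each level range removed, the medians were 0.57 for translation factors, 0.87 for ribosomal proteins and 0.78 for transcription and RNA upkeep. That of the kept mitochondrial synthetases was 0.44. Whether these lists differ from the synthetases could not be tested with 1 library per treatment.

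**Figure D4:**
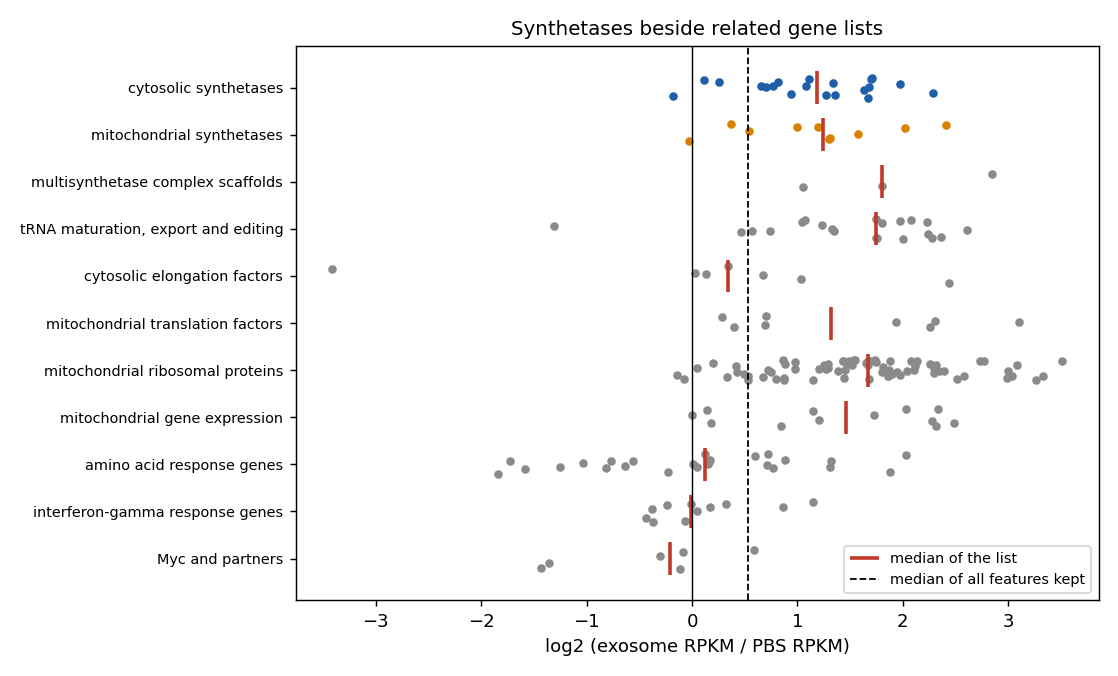
The log2 ratio of exosome to PBS RPKM of each kept gene (points, spread vertically at random for visibility) in the synthetase lists and in related gene lists, with the median of each list (red bars) and of all features kept (dashed line, 0.53). The synthetases lie with the other lists of transfer RNA and mitochondrial protein synthesis, and to the right of the amino acid response, interferon-γ and Myc lists.

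Some members share exon sequence with a neighbour in the GENCODE annotation, and whether reads were assigned by strand is not given in the sources used here. Iars2 shares 22.9% of its exon bases with Rab3gap2 on the other strand (6.15 and 7.86 RPKM). Aars shares 14.3% with Exosc6 on its own strand (0.48 and 2.64 RPKM). Mars overlaps Ddit3 by 68 bases on the other strand, and Ddit3 was the more abundant and had the opposite direction. Hars and Hars2 lie head to head on chromosome 18 with 197 bases between their starts and share 195 exon bases, yet their log2 ratios were 1.27 and 0.37, with counting intervals of 1.13 to 1.41 and 0.26 to 0.48 that did not overlap. Farsb, Fars2, Cars2, Ears2 and Yars share between 0.505% and 9.47% of their exon bases with neighbours on the other strand. How far shared reads entered any of these values was not tested.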

How the data were processed

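Total RNA of 2 neutrophil cultures, 1 per treatment, was sequenced as mRNA libraries (Illumina TruSeq). The authors removed bases of low quality with CLC Genomics Workbench, and the deposited values are RPKM, 1 for each feature in each library. The submitters' processing notes name mm10. The annotation, the treatment of multi-mapped reads, strand use and further scaling are not given in the sources used here. RPKM values from 0.01 upward carry steps of 0.01, and 25 features have a number in place of a name.

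Samples were grouped by their titles. Ratios were taken without a pseudocount after a filter of 0.25 RPKM in both libraries. Depth was estimated from values below 0.01 RPKM that stand for 1 read, with the length of the longest GENCODE M21 transcript of each symbol (GRCm38), which need not be the authors' exon model: 244 of 918 such features in PBS and 288 of 1064 in the exosome library gave the totals used. Read numbers from these totals gave exact Clopper-Pearson 95% counting intervals of the ratios. The calculation was tested on data simulated with the same GENCODE lengths, so that test could not show errors from a different exon model. Python 3.11.15, numpy 2.4.6, pandas 2.3.3 and scipy 1.17.1 were used.

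All 36 members are named. From other lists the 3 genes with the largest absolute log2 ratio, and Atf4, Ddit3, Asns, Myc and Irf1, are named, except 1 gene that is not reported here, and genes named beyond these were chosen after their values were seen. Members, lists and motifs were chosen with earlier results of these data known. Alternatives were median centring, centring on a trimmed mean (30% of log ratios and 5% of levels left out at each end), removal of the median of each level range, TPM scaling, an RPKM of at least 1, no filter (adding 0.25 RPKM), addition of 1 RPKM, and ratios of 4 and 1.5.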

Additional observations from a re-analysis of the deposited data

How the results depend on the processing

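With 1 library per treatment no setting has a replicate error. The numbers of cytosolic, kept mitochondrial and all features up were 12, 7 and 3056. They became 7, 3 and 1634 with median centring, 7, 3 and 1596 with the trimmed mean removed, and 4, 2 and 1353 with the median of each level range removed. As shares, 60%, 70% and 31.5% became 35%, 30% and 16.8%, then 35%, 30% and 16.5%, and 20%, 20% and 14%. A ratio of 4 left 1, 2 and 826 (5%, 20% and 8.52%). A ratio of 1.5 raised the count of all features to 4586 (47.3%). An RPKM of at least 1 left 2 mitochondrial genes (40%), since only 5 passed it, and 1958 features (25.6%). A pseudocount of 1 left 4 (40%) and 1976 (20.4%).

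The median log2 ratios of these sets, 1.19, 1.25 and 0.53, became 0.66, 0.72 and 0.00 with median centring, 0.65, 0.71 and -0.015 with the trimmed mean removed, 0.61, 0.44 and 0.00 with the level medians removed, and 1.01, 0.52 and 0.41 with a pseudocount of 1. The mitochondrial median was 0.54 at an RPKM of at least 1 and 0.89 over 16 genes with no filter, where the median of all 35522 features was 0.

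Under these alternatives no called member turned below 0. Of genes not called, Cars, Dars and Hars2 turned below 0 under all 3 forms of centring, Tars2 under the trimmed mean and level medians, and Vars and Yars under the level medians, where the called Mars2 stood at 0. Under TPM scaling Lars2 was slightly above 0. Counting intervals rest on GENCODE lengths and on RPKM rounded to 0.01, which bears most on the low mitochondrial genes.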
